A study of Mus musculus with 2 samples.

Results

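The 39 Hox genes of the mouse were followed in the embryonic pituitary at embryonic day E12.5, in 1 wild-type library and 1 library labelled as Dyrk2 knockout (Dyrk2-/-, lacking a protein kinase). They were taken by symbol, as every protein-coding gene named Hoxa, Hoxb, Hoxc or Hoxd plus a number, out of 55401 genes in the deposited tables, of which 21897 are protein-coding. All 39 were present in both tables. RNA was polyA-selected, and the values are FPKM, the fragments of a gene scaled to its exon length and to all fragments counted in the library. Neither the number of embryos in a library nor the way in which the allele was made is given in the sources used here. With 1 library per genotype no difference has a replicate check, no p-value was computed, and intervals are exact 95% intervals that cover counting error only.

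Hox genes encode homeodomain transcription factors that give cells their position along the body axis. They lie in 4 clusters, and their order on the chromosome matches the order of their expression from the hindbrain to the tail. Genes in the same place in different clusters form a paralog group, numbered from 1 at the anterior end to 13 at the posterior end. The forebrain, the facial skeleton in front of the hyoid arch and the oral ectoderm of Rathke's pouch, from which the anterior pituitary arises, form without them. Hox transcripts therefore serve as a gauge of how much tissue from the hindbrain, the hyoid arch or further back a dissection holds.

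Whole fragments could be recovered from the tables, 20044981 for wild type and 20115787 for knockout, and values are given in that order. On a gene with 1 kb of exon a single fragment gave 0.0499 and 0.0497 FPKM. Dyrk2 itself measured 11.5 and 1.93 FPKM (1443 and 243 fragments), 5.96-fold lower in the library labelled knockout (5.198 to 6.855). Which of its exons the allele removes is not given in the sources used here. Of 12 pituitary and placode markers, 11 held at least 3 fragments in each library, against 69.9% and 69.3% of all protein-coding genes. Among the 11 were the pouch regulators Pitx1 at 250 and 227 FPKM and Lhx3 at 73.0 and 85.9 FPKM. Pou1f1, a factor of later hormone lineages, was listed at 0 in both.

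Almost no Hox transcript was present in either library. At least 3 fragments, the number below which a gene could not be told from 0, were held by 3 of the 39 genes (7.69%) in wild type and by 3 (7.69%) in knockout. Only Hoxc5 reached it in both. Among all protein-coding genes 69.9% and 69.3% reached that number. No fragment at all was counted in either library for 32 of the 39, against 24% of protein-coding genes. None reached 1 FPKM, and the highest single value was 0.25 FPKM, that of Hoxc4 in the wild-type library. For a gene at 0, the limit of 3 fragments corresponded to between 0.0249 FPKM (Hoxa3, the longest of the 39) and 0.171 FPKM (Hoxa6, the shortest). The zeros are zeros of counting and not of rounding, since below 9942 bases of exon a single fragment would have shown in the second decimal, and the longest Hox gene has 6014.

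Summed over their 102.9 kb of exon, the 39 genes drew 28 fragments in wild type (18.6 to 40.5, Poisson). In knockout they drew 18 (10.7 to 28.4). Per length this is a level of 0.0136 FPKM (0.00902 to 0.0196) and 0.0087 FPKM (0.00515 to 0.0137). The knockout sum was 0.641 of the wild-type sum, with an interval of 0.334 to 1.20 that includes equality, and without Hoxc4 the sums were 15 and 16 fragments.

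**Figure D1:**
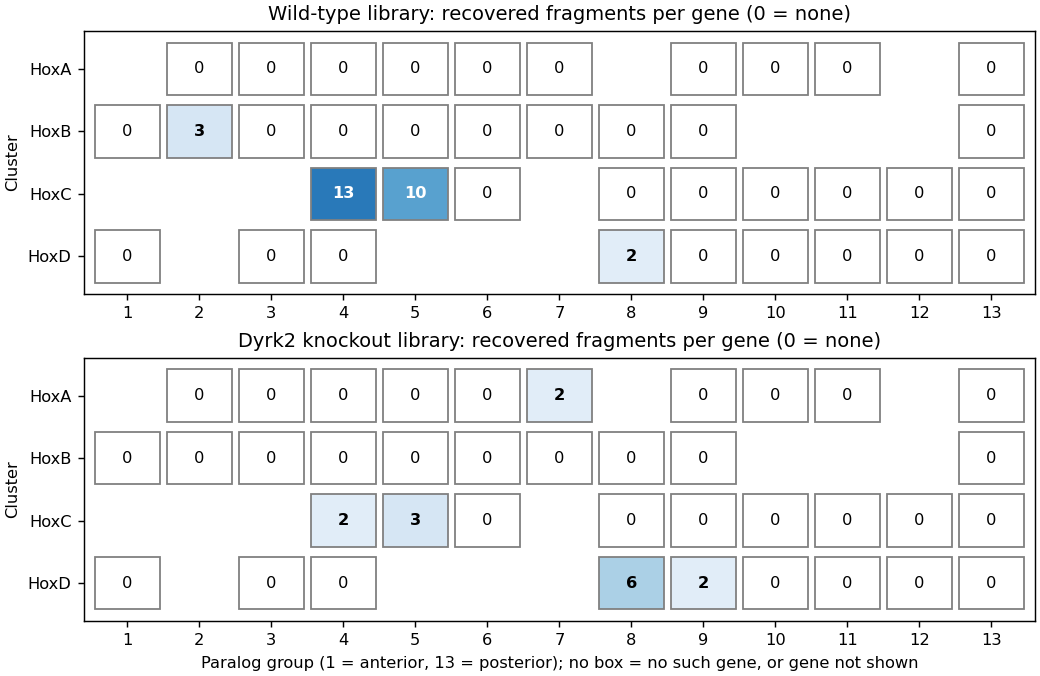
Fragments recovered for 38 of the 39 Hox genes, with the 4 clusters as rows, the 13 paralog groups as columns and 1 panel per library. Filled boxes mark the 4 genes with a fragment in wild type and the 5 among those drawn in knockout, and Hoxc4 and Hoxc5 of the wild-type library hold 13 and 10.

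The anterior paralog groups, 1 to 4, pattern the hindbrain and the pharyngeal arches behind the first. Their 12 genes held 16 and 5 fragments, 3.21-fold lower in knockout (1.12 to 11.2). That difference rested on Hoxc4, without which the groups held 3 and 3 fragments. Hoxb2, a gene of hindbrain segments and facial motor neurons, had 3 and 0 fragments (0.04 and 0 FPKM). The wild-type value lies at the counting limit, and no fold was taken from it. Hoxa2, which sets the identity of the second pharyngeal arch, was at 0 in both libraries, where the limit was 0.0843 and 0.084 FPKM. Hoxb1, a hindbrain segment gene, was at 0 as well, and so were Hoxd1 and all 3 genes of paralog group 3, which act in the third arch and in thymus and parathyroid formation. The group 3 genes cover 14.5 kb of exon, over which the limit of 3 fragments is 0.0104 and 0.0103 FPKM. The exact upper limit for 0 fragments is 0.0127 FPKM in each library. Both figures take all of this exon as countable, though Hoxd3 shares 62.3% of its exon bases with other genes on its strand.

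Hoxc4 (ENSMUSG00000075394), a gene of the posterior hindbrain and neck, lies at chr15:103018934-103036852 on the plus strand (GRCm38). This gene had 13 fragments in the wild-type library, 0.25 FPKM (0.134 to 0.432). In the knockout library it had 2, 0.04 FPKM (0.00469 to 0.140). The difference was 6.52-fold with an interval of 1.48 to 59.5, lower in the knockout library. The other members of group 4, Hoxa4, Hoxb4 and Hoxd4, were at 0 in both.

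The middle groups, 5 to 8, act in the neck and thorax, and their 11 genes held 12 and 11 fragments. Hoxc5 (ENSMUSG00000022485), the neighbour of Hoxc4, spans 102967443 to 103017429 on the same strand. It had 10 fragments in the wild-type library, 0.16 FPKM (0.0774 to 0.297), and 3 in the knockout library, 0.05 FPKM (0.00996 to 0.141). Its ratio of 3.35 had an interval of 0.861 to 18.9 that includes 1. Hoxd8, a trunk gene, went the other way, at 2 and 6 fragments (0.04 and 0.11 FPKM), with an interval of the knockout to wild-type ratio from 0.535 to 30.3. Hoxa7 had 0 and 2 fragments. Hoxa5, a gene of the neck and lung, Hoxc6 and Hoxc8, genes of forelimb-level motor neurons, and the other 5 of this zone were at 0 in both.

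The posterior groups, 9 to 13, mark the lower trunk, limbs, tail and genital region. Their 16 genes held 0 and 2 fragments, and the 2 were of Hoxd9. Over 41.4 kb of exon the limit of 3 fragments is 0.00361 and 0.0036 FPKM. Hoxa9 and Hoxa10, which blood progenitors also use, were at 0, as were Hoxa11, Hoxd11, Hoxa13 and Hoxd13, genes of the limb. Of the fragments seen, the posterior groups held none in wild type and 11.1% in knockout.

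By cluster, the wild-type fragments were concentrated in HoxC, with 23 of 28 (82.1%), all from Hoxc4 and Hoxc5. HoxA had 0, HoxB 3 and HoxD 2. In the knockout library HoxA had 5, HoxB 0, HoxC 5 and HoxD 8. The HoxC sum was 4.62-fold lower in the knockout library (1.72 to 15.5). Without Hoxc4 it was 10 and 3 fragments, and the interval included 1. The HoxD sum was 3.99-fold higher, with an interval of 0.795 to 38.5. Hoxc4 and Hoxc5 were the only members with at least 10 fragments in all, and the interval lay below 1 for Hoxc4 only. Among the 1075 protein-coding genes with 10 to 30 fragments in all, the interval lay below 1 for 10.9% and above 1 for 5.86%.

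No Hox gene could enter a comparison by fold, since none had 1 FPKM. Of the 14000 genes that did, 0.857% were at least 2-fold higher and 1.89% at least 2-fold lower in the knockout library after 0.5 FPKM was added to both values.

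Promoter sequences were available from RefSeq (GRCm38.p6) for 22 of the 39 genes, in 24 windows of 300 bases around annotated start sites. CpG dinucleotides were counted, because Polycomb complexes, which keep Hox genes silent, gather at CpG-rich DNA. The 250 bases before the start are shown for Hoxd8, the gene with most fragments in the knockout library, and for Hoxa5 and Hoxa9, which had none in either library. The last pair were picked, once their CpG counts were seen, as a CpG-rich and a CpG-poor example. Hesx1, a homeobox gene of Rathke's pouch and the anterior forebrain at 45.2 and 43.9 FPKM, is set beside them. Each CpG is in capitals.
Hoxd8 (chr2:74704365-74704614, plus strand): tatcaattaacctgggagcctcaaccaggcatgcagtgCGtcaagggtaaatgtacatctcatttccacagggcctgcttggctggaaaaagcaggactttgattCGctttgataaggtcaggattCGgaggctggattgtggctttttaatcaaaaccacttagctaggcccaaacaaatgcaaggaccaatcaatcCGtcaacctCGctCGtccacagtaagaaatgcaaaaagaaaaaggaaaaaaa
Hoxa5 (chr6:52204588-52204837, minus strand): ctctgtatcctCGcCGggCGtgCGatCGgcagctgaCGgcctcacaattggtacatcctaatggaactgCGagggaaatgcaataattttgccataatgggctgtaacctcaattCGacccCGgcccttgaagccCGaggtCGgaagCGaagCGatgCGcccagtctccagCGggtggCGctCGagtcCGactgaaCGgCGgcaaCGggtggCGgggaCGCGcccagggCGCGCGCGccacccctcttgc
Hoxa9 (chr6:52227371-52227620, minus strand): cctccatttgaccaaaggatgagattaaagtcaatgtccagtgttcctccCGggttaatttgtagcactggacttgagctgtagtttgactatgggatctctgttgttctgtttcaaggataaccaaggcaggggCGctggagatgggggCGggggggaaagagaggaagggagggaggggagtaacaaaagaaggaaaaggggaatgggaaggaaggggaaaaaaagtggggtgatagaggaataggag
Hesx1 (chr14:27000112-27000361, plus strand): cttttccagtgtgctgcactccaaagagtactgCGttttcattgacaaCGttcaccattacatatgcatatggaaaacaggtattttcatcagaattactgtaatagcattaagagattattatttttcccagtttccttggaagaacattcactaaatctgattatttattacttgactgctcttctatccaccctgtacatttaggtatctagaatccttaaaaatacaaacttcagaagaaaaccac
In these stretches Hoxd8 has 6 CpG, Hoxa5 28, Hoxa9 3 and Hesx1 2. Over the full 300 bases the Hox windows held from 4 to 45 CpG with a median of 14.5, against a median of 7 in all 32851 windows of the reference. The median was higher, at 16.5, in windows of the anterior head and pituitary genes, which held from 0 to 37. Hesx1, with 4 in its full window, lies below that median. A GC content of at least 55% together with an observed to expected CpG ratio of at least 0.6 was met by 9 of the 24 Hox windows (37.5%) and by 30.3% of all windows. Windows of the anterior head and pituitary genes met it in 11 of 24 cases (45.8%). The letters TATAAA, searched on both strands, were in 4 Hox windows (16.7%) and in 13.6% of all. Silent Hox genes thus had windows at both ends of this range, and methylation or histone marks were not measured.

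The clusters were also nearly silent between the Hox genes. A further 46 annotated genes lie within the spans of the clusters, of which 3 are protein-coding and most of the rest non-coding, antisense or microRNA genes. Of these, 43 had no fragment in either library, while among all 55401 genes 30440 had none. The 46 include 16 genes annotated as miscellaneous RNA and 7 microRNA genes. Hotairm1, an antisense transcript within HoxA, had 0 and 2 fragments, and the non-coding Gm14424 in HoxD also had 0 and 2. Hotair, a long non-coding RNA of HoxC, was at 0, and so was Hottip, which starts 1.895 kb beyond HoxA. The hairpin genes Mir10a, Mir10b, Mir196a-1, Mir196a-2, Mir196b and Mir615 were at 0, though a library of polyA RNA does not capture the mature microRNAs. The exception was Gm11539, a processed pseudogene between Hoxb13 and Hoxb9, at 13.9 and 13.6 FPKM (155 and 152 fragments). Of its stretches of 50 bases, 41.3% occur unchanged in transcripts of Rpl18, a ribosomal protein gene at 107 and 103 FPKM, so fragments of these genes cannot be fully told apart.

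Genes beyond the clusters were expressed in part. Within 400 kb of their ends lie 35 other protein-coding genes, and 22 of these had at least 1 FPKM in at least 1 library. Of all 21897 protein-coding genes 12105 did, a share not far from that of the neighbours. Evx2 and Evx1, homeobox genes that adjoin HoxD and HoxA and are used in the posterior embryo, were at 0 in both libraries. Beyond HoxD, Mtx2, a mitochondrial import gene 60.7 kb away, measured 15.8 and 17.8 FPKM, and Lnpk, an endoplasmic reticulum gene on the other side, 3.69 and 3.51 FPKM. Beyond HoxC, Smug1, a DNA repair gene 116 kb away, measured 5.64 and 4.14 FPKM, and Cbx5, which encodes a heterochromatin protein, 76.6 and 80.2 FPKM. Around HoxB the nearest protein-coding gene of at least 1 FPKM in both libraries was Atp5g1, an ATP synthase subunit gene 119 kb away, at 5.68 and 5.66 FPKM. Hibadh, an enzyme of valine breakdown 285 kb from HoxA, measured 6.80 and 5.16 FPKM.

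Of 26 lincRNA, antisense and processed transcript genes within the same 400 kb, 14 had no fragment in either library and 4 had at least 1 FPKM in at least 1. Among all 55401 genes the counts were 30440 and 14000. All 4 of the non-coding neighbours with at least 1 FPKM had lower values in the knockout library, as did 7512 of the 14000 genes compared by fold. Gm28876 and Gm10830, lincRNA genes 59.3 and 65.4 kb beyond the Hoxc4 end of HoxC, lie nearer than Smug1. Gm28876 measured 4.47 and 1.49 FPKM (63 and 21 fragments), a ratio of 3.01 (1.81 to 5.195). Gm10830 measured 4.71 and 0.63 FPKM (60 and 8 fragments), a ratio of 7.53 (3.58 to 18.2). Halr1, a lincRNA gene 41.9 kb beyond the anterior end of HoxA, measured 1.53 and 0.56 FPKM (30 and 11 fragments), a ratio of 2.74 (1.33 to 6.05). Gm29202, an antisense gene 186 kb from HoxB, had 12 and 6 fragments, with an interval that includes 1. These neighbours were named after their values were seen, and whether their levels are linked to that of Hoxc4 was not tested.

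**Figure D2:**
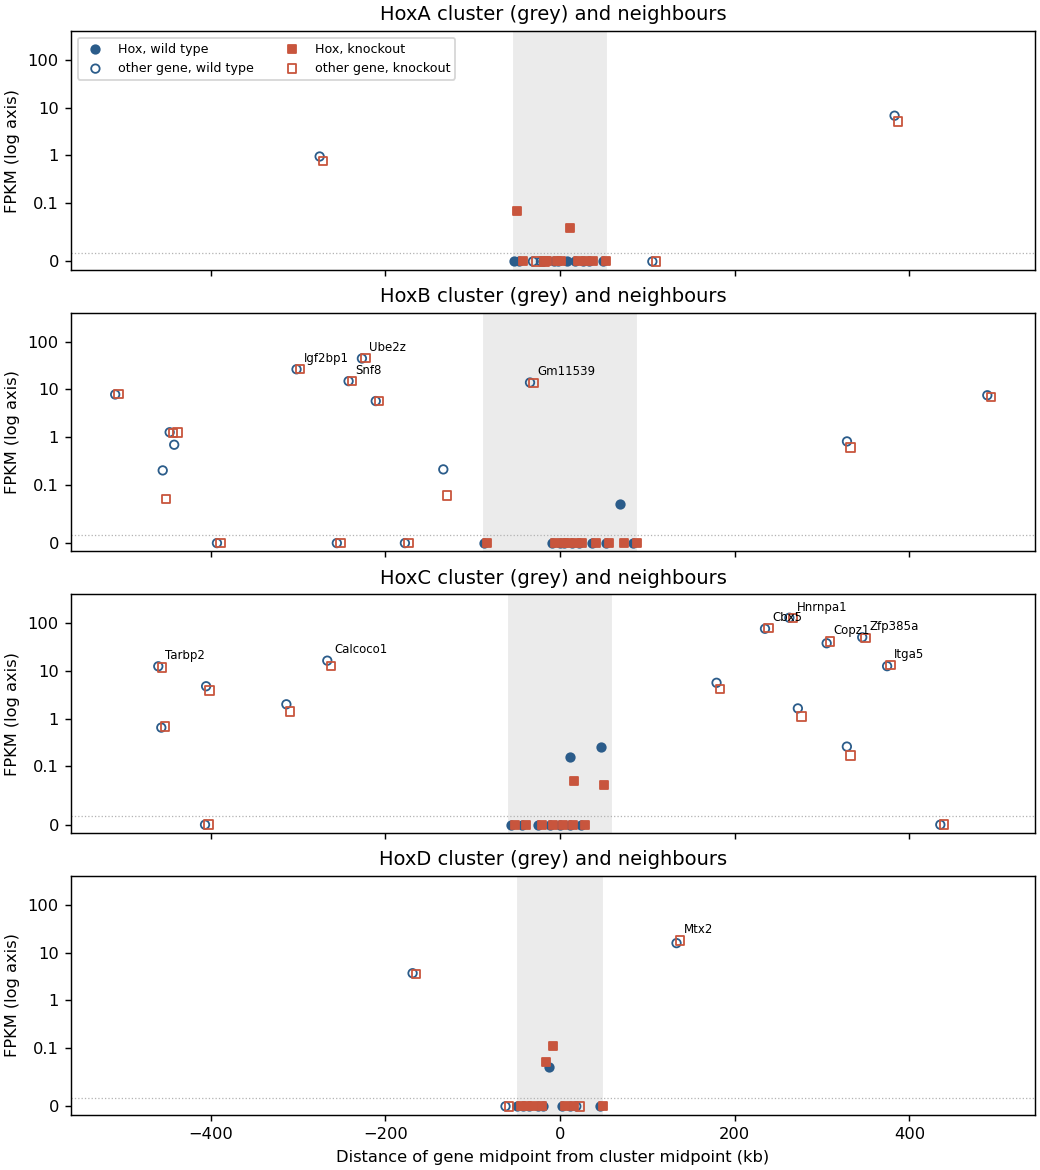
FPKM of protein-coding genes, and of Gm11539, in the 4 Hox clusters (grey) and within 400 kb of them, against the distance of each gene's midpoint from the cluster's midpoint, on a log axis with genes at 0 below the dotted line. Filled symbols are Hox genes, none above 0.25 FPKM, and open symbols are other genes, 22 of 35 neighbours with at least 1 FPKM. Of all 21897 protein-coding genes, 12105 had at least 1 FPKM in at least 1 library.

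Hox genes had lower levels than 9 other homeobox families. These families were chosen by symbol and have 81 members. Of these, 63 held at least 3 fragments in at least 1 library and 47 (58.0%) had at least 1 FPKM. Among all 21897 protein-coding genes the counts were 15615 and 12105, shares not far from those of the families. All 6 members of the sine oculis family had at least 1 FPKM, at a summed level of 43.8 and 44.4 FPKM per length. Its genes, among them Six3 and Six6, regulate placodes and the eye and forebrain. The Pitx and Otx genes stood at 51.9 and 48.1 FPKM, the Lhx and Isl genes at 9.52 and 9.53 FPKM. The Irx genes, used in the midbrain, hindbrain and facial region, were the family nearest to Hox, at 0.317 and 1.04 FPKM. In the wild-type library this was 23.4-fold the Hox level, and the level of the sine oculis family was 3228-fold. At the other end, the 1135 olfactory receptor genes, which the pituitary should not use, had a summed level of 0.000845 and 0.000326 FPKM. At the exon length of the 39 Hox genes that level would give 1.74 and 0.674 fragments, set beside the 28 and 18 counted. The Hox sum was thus above that of receptors from another organ and far below that of every other homeobox family compared. Without Hoxc4 and Hoxc5 the wild-type Hox level was 0.00257 FPKM (0.000833 to 0.00599), an interval that just includes the receptor level. In knockout it was 0.00665 FPKM (0.00354 to 0.0114), still above the receptor level.

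**Figure D3:**
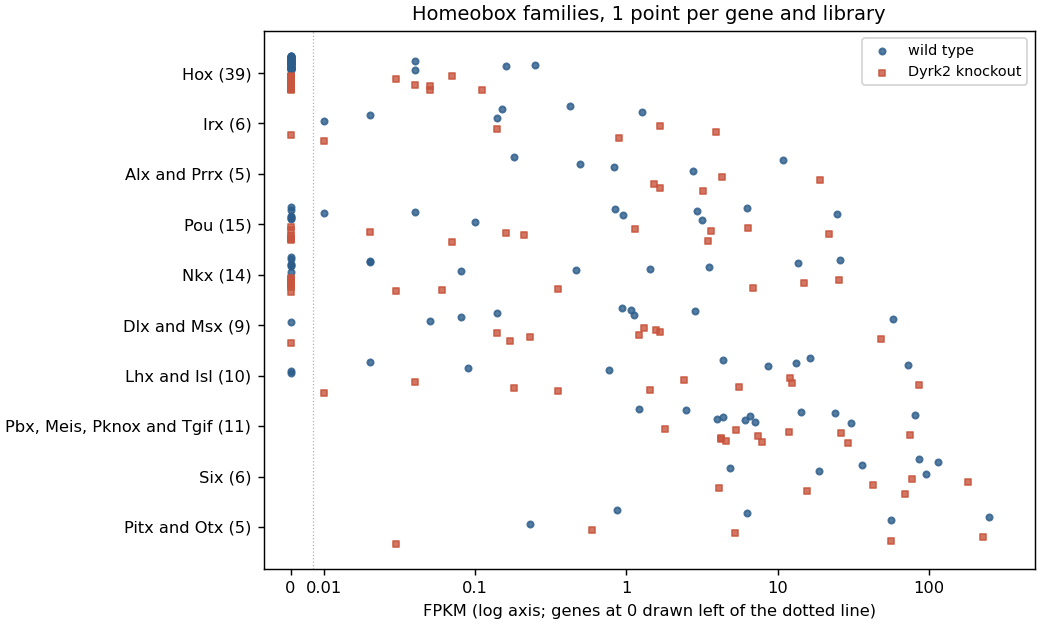
FPKM of each gene of 10 homeobox families in the wild-type (circles) and knockout (squares) library, on a log axis with genes at 0 left of the dotted line and the number of genes in parentheses. Hox genes lie at 0 or at no more than 0.25 FPKM, while 47 of 81 genes of the other families reach 1 FPKM in at least 1 library. Of all 21897 protein-coding genes, 12105 do.

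Anterior head homeobox and forkhead genes were all present. Of 14 such genes, 14 held at least 3 fragments in each library, against 69.9% and 69.3% of all protein-coding genes. Of the same 14, 11 had at least 1 FPKM in at least 1 library, as did 12105 of all 21897 protein-coding genes. The highest of the 14 were Six6 at 95.3 and 69.7 FPKM, Hesx1, and Six3 at 35.9 and 42.5 FPKM. Next came Nkx2-1, a factor of the ventral hypothalamus, at 25.9 and 25.3 FPKM. Otx2, which defines the fore- and midbrain, measured 6.24 and 5.19 FPKM. Vax1, a ventral forebrain and optic stalk gene, was 2.92-fold higher in the knockout library (1.60 to 5.65), at 0.67 and 1.96 FPKM. With 0.5 FPKM added it was the 1 of 11 beyond 2-fold. Of all 14000 genes, 0.857% were at least 2-fold higher and 1.89% at least 2-fold lower. The median log2 ratio of the 11 was -0.04, and over all 14000 genes it was -0.02.

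Regional genes of the midbrain, hindbrain and trunk were mostly low. Of 12 genes listed for the hindbrain and trunk, 7 held at least 3 fragments in each library and 3 were at 0 in both. Among all protein-coding genes 69.9% and 69.3% held 3 fragments and 24% were at 0 in both, so neither count sets the list apart. The 3 of the 12 with at least 1 FPKM, among them Gdf11 and Cyp26a1, all had log2 ratios below 0. None of them was beyond 2-fold with 0.5 FPKM added. Ratios below 0 were common, found for 7512 of the 14000 genes compared by fold, so 3 of 3 does not set this list apart. Gdf11, a signal for posterior Hox expression in the trunk, measured 19.9 and 18.8 FPKM. Of 7 homeobox genes linked to the clusters or their relatives, none had 1 FPKM, 4 were at 0 in both and 2 held at least 3 fragments in wild type. These were Mnx1 and En2, and Mnx1 alone was under the limit in knockout. Mnx1, a motor neuron homeobox gene, had 11 and 1 fragments (0.24 and 0.02 FPKM), with a ratio of 11.0 and an interval of 1.60 to 475. En2, a gene of the midbrain and hindbrain border, had 16 and 5 fragments (3.21-fold lower, 1.12 to 11.2). Phox2a, a factor of cranial motor and autonomic neurons, measured 0.76 and 0.24 FPKM (3.11-fold lower, 1.49 to 7.11). Cyp26a1, which degrades retinoic acid, measured 1.06 and 0.48 FPKM (2.22-fold lower, 1.26 to 4.04). Egr2, a hindbrain segment gene, had 7 and 3 fragments. Tbx5, Nkx2-5 and Hand2, also among the 12, had at most 1 fragment, and Tbx4 had 3 and 6. Of the ParaHox genes, the sister cluster genes of gut and nervous system, the gut genes Pdx1, Cdx2 and Cdx4 were at 0 and Cdx1 had 0 and 1 fragments. Gsx1, which is used in the hypothalamus, measured 1.29 and 1.49 FPKM. Whether the same cells hold the HoxC fragments and those of Mnx1, En2 and Phox2a was not tested. In such bulk samples, fewer cells of a type and less RNA per cell cannot be told apart.

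Hox cofactors were expressed in both libraries. The TALE homeodomain proteins of the Pbx, Meis and Pknox families bind DNA with Hox proteins and also act without them, and the Tgif genes are relatives. All 11 genes listed had at least 1 FPKM in both libraries, as did 11611 of all 21897 protein-coding genes. Pbx2 measured 80.5 and 75.2 FPKM, Tgif2 30.4 and 29.4 FPKM and Meis3 14.17 and 11.95 FPKM. Meis2, a gene of forebrain and of cranial neural crest, measured 2.13 times as much in knockout (1.93 to 2.35), from 2.49 and 5.31 FPKM. For Meis1 the ratio was 1.48 (1.26 to 1.74), from 1.21 and 1.79 FPKM, and Pknox2 1.33-fold lower (1.22 to 1.45). With 0.5 FPKM added, 10 of 11 lay within 1.5-fold, as did 93.4% of all genes, and the median log2 ratio was 0.06.

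Genes that keep Hox clusters silent or active were expressed in both libraries. Polycomb complexes place the repressive mark on histone H3 at lysine 27 and compact the chromatin. At least 3 fragments were held by 69.9% and 69.3% of all protein-coding genes, and in each library by all 20 Polycomb genes listed. The highest were the histone-binding subunit genes Rbbp7 at 109 and 122 FPKM and Rbbp4 at 47.8 and 49.9 FPKM. The methyltransferase gene Ezh2 measured 27.3 and 31.8 FPKM, and its partners Suz12 and Eed measured 32.1 and 33.2 FPKM and 14.1 and 17.2 FPKM. Among the genes of the other complex, Rnf2 measured 32.5 and 36.2 FPKM and Cbx2, whose loss shifts Hox boundaries, 35.3 and 38.0 FPKM. With 0.5 FPKM added, 19 of 20 lay within 1.5-fold, a share near the 93.4% of all genes. Cbx7 was the 1 of 20 beyond 1.5-fold with the addition, 1.99-fold lower (1.52 to 2.64) at 1.22 and 0.61 FPKM. The median was 0.00. On the activating side, all 12 Trithorax and related genes lay within 1.5-fold, beside the same 93.4%. Psip1, a chromatin reader, was the highest at 67.5 and 76.2 FPKM. Kmt2a, the methyltransferase that maintains Hox expression, measured 9.21 and 9.20 FPKM, and Kdm6a, a demethylase of lysine 27, 11.5 and 8.76 FPKM.

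**Figure D4:**
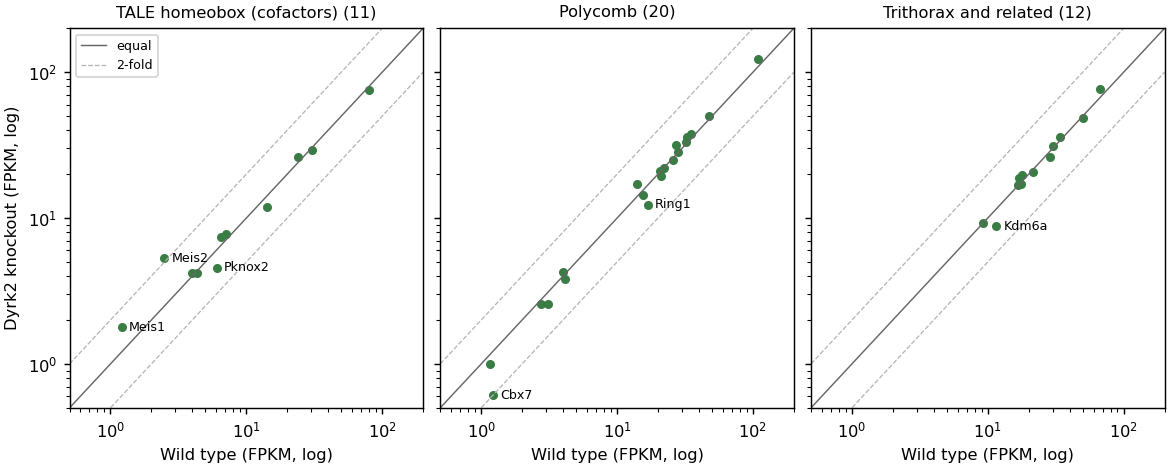
FPKM in the knockout against the wild-type library, on log axes, for 11 TALE homeobox genes, 20 Polycomb genes and 12 Trithorax and related genes, with the line of equality and dashed lines at 2-fold. Meis2 and Cbx7, at ratios of 2.13 and 0.501, lie furthest from equality.

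Other cell types that could carry Hox transcripts were present in both libraries. Endothelial cells and macrophages use some Hox genes in the body. At least 3 fragments were held by 69.9% and 69.3% of all protein-coding genes, and in each library by 10 of 10 endothelial and 10 of 10 macrophage markers. Their summed levels were 111 and 129 FPKM (endothelium) and 35.2 and 32.0 FPKM (macrophages). Neuronal markers summed to 97.2 and 82.3 FPKM, with the motor neuron gene Isl2 at 4.35 and 2.40 FPKM. Their sum was lower in knockout, but of the 9 with at least 1 FPKM, 6 were higher and 3 lower, with a median log2 ratio of 0.30. The neurofilament gene Nefl measured 49.99 and 34.0 FPKM, and the neuronal marker Tubb3 15.94 and 23.05 FPKM. Blood markers, which are mostly globin, summed to 2274 and 1752 FPKM. Of neural crest and mesenchyme markers, 14 of 15 and 15 of 15 held at least 3 fragments, and the members differed in opposite directions between the libraries. Of the 12 with at least 1 FPKM, 6 were above and 6 below equality, and 6 lay within 1.5-fold, against 93.4% of all genes. With 0.5 FPKM added, Alx1 and Alx4, genes of the frontonasal crest, were beyond 2-fold higher in knockout. Col1a1, a collagen gene, and Twist1, a mesenchymal factor, were beyond 2-fold lower. Of all 14000 genes compared by fold, 0.857% were at least 2-fold higher and 1.89% at least 2-fold lower. Alx1 measured 0.18 and 4.29 FPKM (21 and 497 fragments), a ratio of 23.6 (15.3 to 38.4). Col1a1 measured 42.7 and 16.2 FPKM, 2.64-fold lower (2.51 to 2.78). The summed level was 233 and 171 FPKM. The defining genes of migrating and glial crest, Sox10 and Foxd3, had 2 and 6 and 3 and 4 fragments. The part of these cells in the Hox fragments was not tested.

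How overlapping genes were counted bears on some of the zeros. The deposited exon length equalled that of GENCODE M21 for all 39 genes. Exons of 9 Hox genes overlap exons of another gene on the same strand, and for Hoxd3 and Hoxd4 the shared part is 62.3% and 52.3% of exon bases. If shared fragments were dropped, the zeros of Hoxd3 and Hoxd4 rest on 1578 and 1406 unshared bases. On either strand 16 Hox genes overlap another gene, which would matter if strand was ignored in counting. The shared part is then 52.9% for Hoxb3, 35.0% for Hoxa11, 27.3% for Hoxb2, 27.1% for Hoxa3 and 20.4% for Hoxa7. Hoxc4 shares no exon base with another gene and Hoxc5 shares 5.37%, with Hoxc10. Stretches of 50 bases in common with genes outside the clusters made up at most 1.44% of any member (Hoxc9), so similar copies elsewhere touched little of the 39 genes.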

How the data were processed

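Per the labels' protocols, total RNA of E12.5 pituitaries was polyA-selected into stranded libraries. The authors deposited 1 table per library with a gene identifier, exon length and FPKM, rounded to 2 decimals. The submitters' processing notes list cutadapt 1.9.1, HISAT2 2.0.1 and the build GRCm38. The counting tool, its use of strand and overlaps, and the release of the annotation were not given in the sources used here.

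FPKM multiplied by exon length moves in whole fragments, which gave the depths. All 1512 and 1372 short-gene values checked were whole within 0.1 fragment, and each printed Hox value fits 1 whole number only. Genes were called detected at 3 fragments. Poisson intervals and Clopper-Pearson intervals of ratios (scipy 1.17.1) cover counting error only, and reads without molecular identifiers are not independent molecules. Log2 ratios for counts of genes used FPKM plus 0.5 after dropping genes under 1 FPKM in both libraries. No count model was used. The steps were tested on simulated counts. Symbols came from GENCODE M21, with 55141 of 55401 identifiers matched.

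The Hox genes, comparison lists and families were chosen with earlier results of these data known. The naming rule took every Hox member with 3 fragments in a library, non-coding cluster genes with 3 fragments, and of each other list the 4 highest and up to 4 most different genes of at least 1 FPKM. Genes named outside it were chosen after their values were seen: Hotairm1, Gm14424 and genes at 0 in or near the clusters, the neighbours, genes under 1 FPKM, some pituitary, anterior head, Polycomb and Trithorax genes named for their role, and the genes with printed promoters. The lists' remaining members are given by counts. Values of some single genes are not reported here.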

Additional observations from a re-analysis of the deposited data

How the results depend on the processing

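No paired analysis was possible because each genotype has a single library, and no replicate could be left out. The number of Hox genes detected rested on the threshold, at 3 in each library with 3 fragments. With 1 fragment it was 4 and 6, with 10 fragments 2 and 0, at 0.1 FPKM 2 and 1, and at 1 FPKM 0 and 0. The knockout to wild-type ratio of all Hox fragments, 0.641, turned to 1.06 (0.492 to 2.31) without Hoxc4, and that of paralog groups 5 to 8, 0.913, to 3.99 (0.795 to 38.5) without Hoxc5. Without Hoxc4 the groups 1 to 4 were left with 3 and 3 fragments and no ratio was taken, nor for HoxA, HoxB, or HoxD without Hoxd8, where a library has 0. Scaling by the upper quartile or a trimmed mean multiplied the knockout library by 1.02 and 1.01 and turned no Hox ratio. Counts of Hox genes beyond 2-fold were 0 by construction under most settings, and say nothing of stability: with pseudocounts of 0.1 or 2, or a trimmed mean, no member passed the filter, and with 0.5 FPKM added and a lower or no filter the highest Hox value could give at most 1.5-fold. With a pseudocount of 0.1 and a filter of 0.1 FPKM together, chosen after seeing the data, 1 of 3 members (Hoxc4) was 2-fold lower, against 8.01% of all genes. The medians of 11 comparison lists kept their sign with pseudocounts of 0.1 and 2. For a gene as long as Hoxc4, levels under 0.0583 and 0.0581 FPKM could not be told from 0 at this depth.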
